A study of Gallus gallus with 20 samples.

Results

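The genes described here are cell cycle genes, chosen by name: the cyclins and their kinases, the DNA replication machinery, the checkpoint and spindle proteins, the kinetochore and the condensins. Of 40 genes listed, 34 had a probe set in the array annotation, out of 13009 genes with one, and each was represented by the probe set of highest mean over the 20 arrays. CDK2, CCNB2, CDC6, MCM4, AURKA and ESPL1 were not analysed here. Of the 34 genes, 14 had 1 probe set and 20 had several.

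A dividing cell copies its DNA in S phase and separates the copies in mitosis. D-type cyclins start the cycle in G1, CCNE2 and the MCM helicase belong to the entry into S phase, and CDK1 with its A- and B-type cyclins drives mitosis. Many of these RNAs are made only in cycling cells and rise in S phase or before mitosis, so in a tissue they follow both the share of dividing cells and the RNA made per cell. In bulk RNA such as this, fewer dividing cells and less RNA per dividing cell cannot be told apart.

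The samples were embryonic skins of white leghorn chickens, in which the dorsal skin forms feathers and the metatarsal skin of the foot forms scales. Skins were pooled, the epithelium was peeled from the mesenchyme in EDTA, and total RNA of each was hybridised to an Affymetrix chicken array. Feather epithelium and mesenchyme were taken at embryonic day 7 (E7fe and E7fm, 2 arrays each), called undifferentiated in the labels, and at day 9 (E9fe and E9fm, 3 arrays each), called differentiated. Scale epithelium and mesenchyme were taken at day 9 (E9se and E9sm, 2 arrays each, undifferentiated) and at day 11 (E11se and E11sm, 3 arrays each, differentiated). The labels name no treatment and no transgene. By their titles, arrays within a group come from separate biological samples, each of pooled skin, and p-values measure the spread between such pools. All levels below are log2 array signals after the authors' normalization, and all differences are differences of group means on that log2 scale. A difference of 1 is a doubling, and a difference is said to pass where the limma test gave an adjusted p under 0.05 after Benjamini-Hochberg adjustment over 38439 probe sets.

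By list means, the compartments carried their markers. The mean level of 9 measured epithelial genes (of 13 listed) was 11.01 to 12.13 in the 10 epithelium arrays and 5.40 to 8.68 in the 10 mesenchyme arrays, and that of 11 mesenchyme genes was 12.46 to 12.79 in mesenchyme and 8.49 to 10.72 in epithelium. Not every mesenchyme gene separated them. DCN, alone of the 11, had a higher mean in E7fe (13.24) than in E7fm (13.05). COL1A2 was high in both, at 13.15 in E7fe and 13.60 in E7fm. The arrays labelled E9fe replicate 1 and E9fm replicate 1 stood apart. The limb gene SP8 was at 10.16 in E9fe replicate 1 against 3.98 and 4.01 in the other E9fe arrays, and at 9.50 and 10.15 in E9se. The hindlimb gene TBX4 was at 10.39 in E9fm replicate 1 against 5.29 and 5.35 in the other E9fm arrays, and at 11.16 and 10.17 in E9sm. Both arrays therefore went against the dorsal label, both also held the highest level of the opposite compartment's markers (10.72 and 8.68), and for each comparison that uses the E9 feather groups the calls and the mean difference are given with and without them. The hybridisation control probe sets divided the arrays into 3 classes of 8, 8 and 4 arrays, called A, B and C below, and no label names a batch. Every group held 1 array of class A and 1 of class B, and class C was the replicate 1 array of E9fe, E9fm, E11se and E11sm.

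The group means of the 34 cell cycle genes were 10.06 to 10.53, against 7.32 to 7.38 for all genes. The mean of the 34 changed sides between the compartments of feather skin. Mean levels of the 34 genes over the 20 arrays ran from 7.58 for the RFC3 probe set to 12.43 for the PCNA probe set. All were above 5.71, a median over all probe sets that was not limited to the brightest of each gene. In E11sm, RFC3 at 7.10 lay below the mean of all genes at 7.38. Brightness depends on the probe, so these levels do not order the genes by RNA amount. The range of the 8 group means had a median of 0.67 over the 34 genes and 0.68 over all genes. CCND1, which drives G1, varied least, with group means 0.23 apart, and CENPF, a kinetochore protein of dividing cells, varied most, with group means 1.53 apart.

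The mean of the 34 levels was 10.23 and 10.10 in the E7fe arrays and 10.52 and 10.54 in the E7fm arrays, so at E7 the mesenchyme arrays lay above the epithelium arrays. At E9 it was 10.07, 10.65 and 10.63 in E9fe and 10.21, 10.17 and 9.81 in E9fm, the first value of each being the doubted array. Without those arrays, both E9fe values lay above every E9fm value. In scale skin the mean was 10.31 and 10.30 in E9se, 10.42 and 10.26 in E9sm, 10.18, 10.32 and 10.11 in E11se, and 10.23, 10.18 and 10.07 in E11sm, and the compartments overlapped at both ages.

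**Figure D1:**
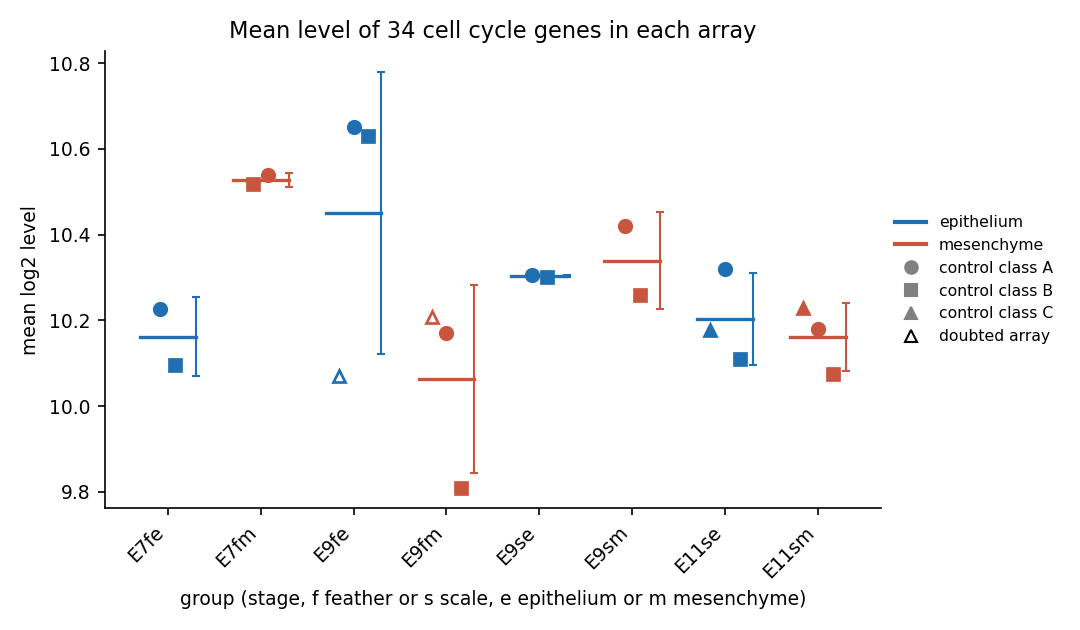
Mean log2 level of the 34 cell cycle genes in each of the 20 arrays, by group. Blue is epithelium and red mesenchyme, the symbol gives the control class (circle A, square B, triangle C), open symbols are the 2 doubted arrays, the line is the group mean and the bar its SD. E7fm (10.53 ± 0.02, n = 2) lies above E7fe (10.16 ± 0.09, n = 2), while the E9fe mean (10.45 ± 0.33, n = 3) lies above the E9fm mean (10.06 ± 0.22, n = 3).

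By gene, E7fm had the highest group mean for 14 of the 34 and E9fe for another 14, against 14.1% and 10.5% of all genes. E9fm had the lowest group mean for 15 of the 34 and E7fe for 10, against 11.2% of all genes for each. The groups that held most of the highest and most of the lowest means were thus all feather groups.

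**Figure D2:**
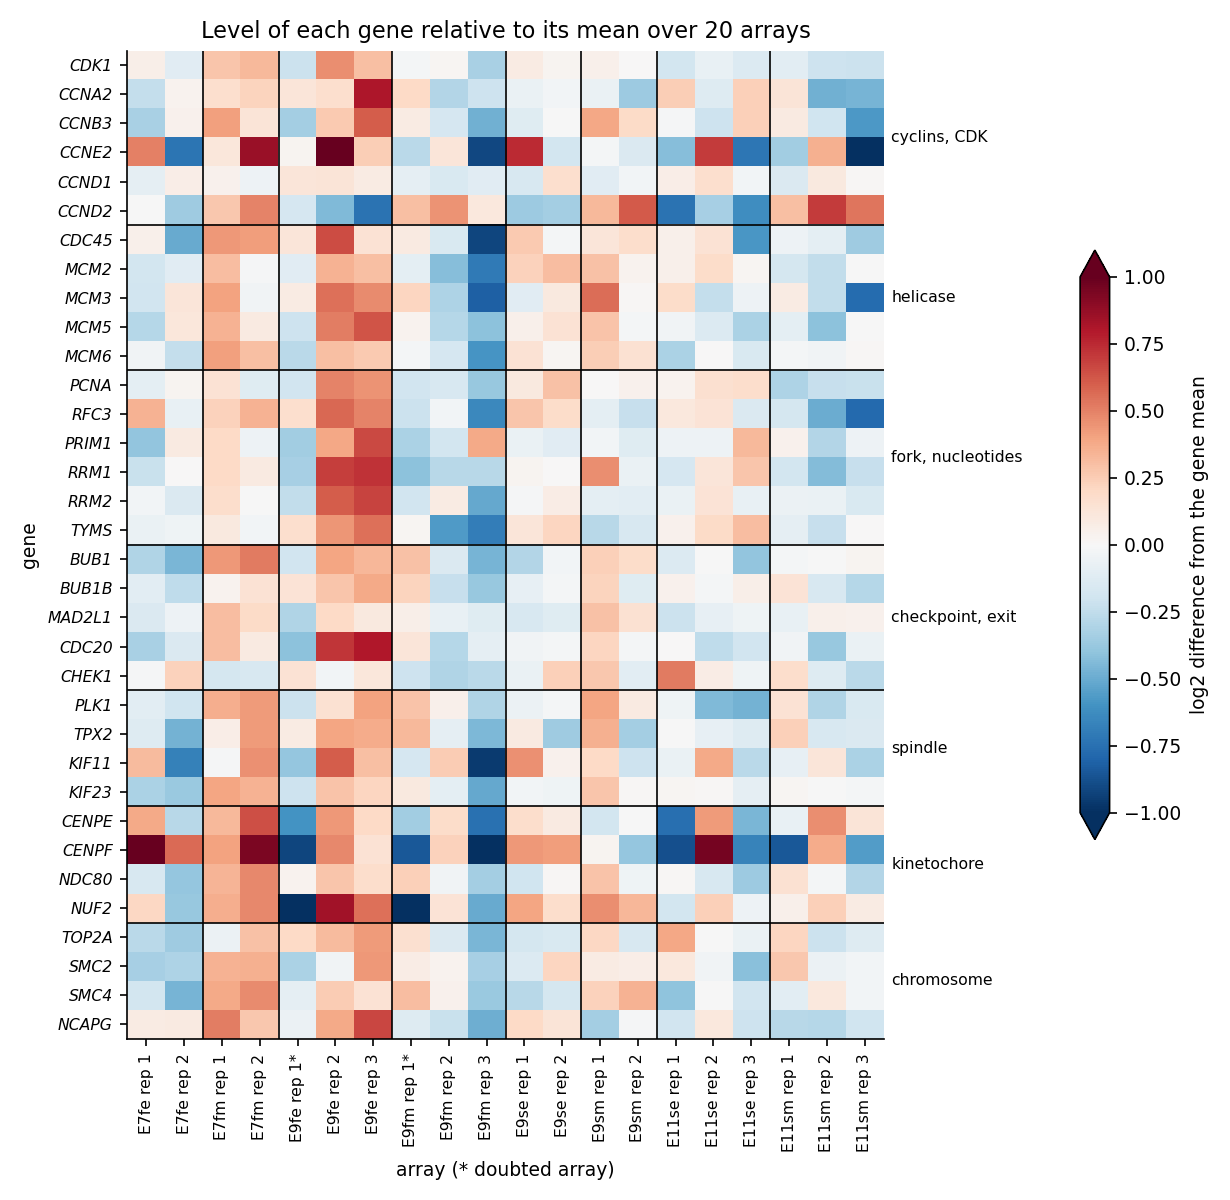
Log2 level of each of the 34 genes in each array relative to the gene's mean over the 20 arrays, with genes ordered by role and arrays by group. Colours are clipped at 1 in either direction and an asterisk marks the 2 doubted arrays. The E7fm columns and the undoubted E9fe columns are mostly above the gene means, and the undoubted E9fm columns are mostly below.

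The first comparison asked whether the compartments of undifferentiated E7 feather skin differed in these RNAs. In E7fm, 4 genes of mitosis rose over E7fe: BUB1, a kinase of the spindle checkpoint, SMC4, a condensin ATPase that compacts chromosomes, KIF23, a motor of the cleavage furrow, and NDC80, which ties microtubules to the kinetochore. No gene fell, so 4 of 34 passed, where 17.8% of all genes passed in either direction and 9.08% rose. Of the 34 differences, 32 were above 0, with a median of 0.37, against 47.3% of all genes above 0 and a median of -0.02. In 23 of the 34, both E7fm arrays lay above both E7fe arrays, as they did in 27.3% of all genes.

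BUB1 was at 9.56 and 9.41 in E7fe and at 10.30 and 10.39 in E7fm, a difference of 0.86 (SE 0.23, adjusted p 0.0192) or 1.81-fold. SMC4 was at 10.02 and 9.74 in E7fe and at 10.59 and 10.68 in E7fm, a difference of 0.75 (SE 0.20, adjusted p 0.0222). KIF23 was at 9.87 and 9.81 in E7fe and at 10.57 and 10.53 in E7fm, a difference of 0.71 (SE 0.19, adjusted p 0.0210). NDC80 was at 8.82 and 8.59 in E7fe and at 9.32 and 9.45 in E7fm, a difference of 0.68 (SE 0.21, adjusted p 0.0422). For each of these genes the compartments did not overlap and the gap between them exceeded the gap between replicate arrays. SMC2, the condensin partner of SMC4, differed by 0.67 without passing (adjusted p 0.0834).

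By phase, the mean E7 difference was 0.46 over 19 genes of G2 and mitosis, of which 4 passed, and 0.25 over 13 genes of the G1 to S transition and S phase, of which 0 passed. Of all genes, 9.08% passed by rising. No test compared the phases or the roles with each other. By role it was 0.55 for spindle kinases and motors, 0.54 for chromosome structure, 0.39 for the replicative helicase, 0.37 for cyclins and kinases, 0.34 for the kinetochore, 0.33 for checkpoints and exit, and 0.16 for the replication fork and nucleotide supply. PCNA, the sliding clamp of the fork, differed by 0.05, and TYMS, which makes thymidylate, by 0.09. CDK1 differed by 0.33, the cyclin CCNA2 by 0.30, TOP2A, the topoisomerase that untangles chromosomes, by 0.43 and MCM2, a helicase subunit, by 0.29, and none of these passed. The 2 genes below 0 were CHEK1, a checkpoint kinase of S phase, at -0.28, and CENPF at -0.26. Leaving out 1 array of the 4 left 0 or 1 calls (SMC4, without E7fe replicate 1), and the share of all genes passing in those fits is not given here. The mean difference was 0.31 within class A and 0.42 within class B.

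The same comparison was made at E9. In E9fm, 5 of the 34 fell below E9fe: TYMS, RFC3, a subunit of the clamp loader, NCAPG, a condensin subunit, MCM2 and PCNA. Only CCND2, a D-type cyclin of G1, rose. In this comparison 24.3% of all genes passed, 12.1% by falling and 12.1% by rising. Of the 34 differences 33 were below 0, with a median of -0.42, against 52.7% of all genes below 0 and a median of -0.03.

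TYMS was at 11.14, 11.41 and 11.51 in E9fe and at 10.98, 10.40 and 10.27 in E9fm, with no overlap, and fell by 0.80 (SE 0.17, adjusted p 0.00266). MCM2 was at 10.24, 10.70 and 10.65 in E9fe and at 10.26, 9.93 and 9.64 in E9fm. It fell by 0.59 (SE 0.17, adjusted p 0.0219), and only the doubted arrays overlapped. PCNA was at 12.23, 12.92 and 12.87 in E9fe and at 12.23, 12.27 and 12.05 in E9fm. It fell by 0.50 (SE 0.16, adjusted p 0.0447), again with the E9fe doubted array at the level of the mesenchyme.

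RFC3 was at 7.75, 8.16 and 8.08 in E9fe and at 7.37, 7.56 and 6.94 in E9fm, and fell by 0.71 (SE 0.19, adjusted p 0.0148). NCAPG was at 9.21, 9.65 and 9.93 in E9fe and at 9.14, 9.04 and 8.78 in E9fm, and fell by 0.61 (SE 0.17, adjusted p 0.0206). Neither overlapped between the compartments. RRM1, the large subunit of ribonucleotide reductase, was 0.68 lower and did not pass (adjusted p 0.0533). The difference of its other probe set was -0.62 and passed (adjusted p 0.037). In 7 of the 34 genes every E9fm array lay below every E9fe array, as in 17.5% of all genes.

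CCND2 went the other way. It was at 9.87, 9.60 and 9.30 in E9fe and at 10.34, 10.49 and 10.15 in E9fm, with no overlap, and rose by 0.74 (SE 0.18, adjusted p 0.00715) or 1.67-fold. CCND1, the other D-type cyclin measured, was at 11.33, 11.34 and 11.29 in E9fe and at 11.12, 11.05 and 11.09 in E9fm. Its 0.23 lower mean in mesenchyme did not pass (adjusted p 0.248), although the arrays did not overlap.

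**Figure D3:**
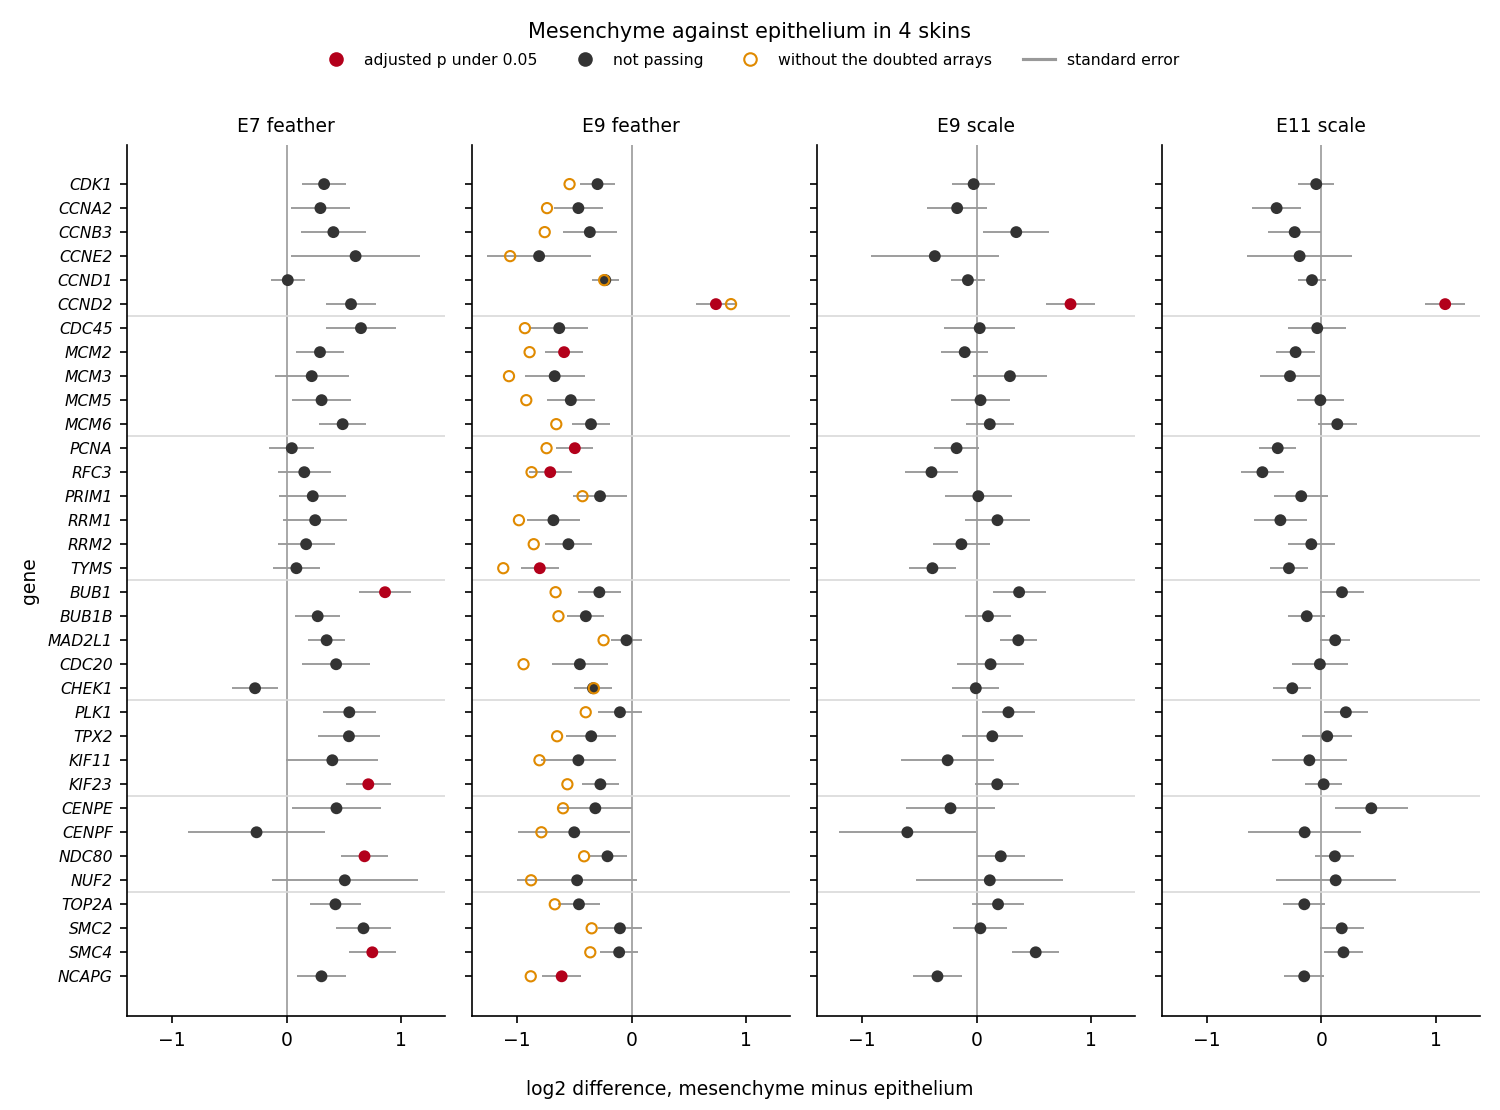
Mesenchyme minus epithelium difference in log2 level of each of the 34 genes in E7 feather, E9 feather, E9 scale and E11 scale skin. Bars are SE, red points pass the adjusted threshold, and open orange points show the values without the 2 doubted arrays. Points lie mostly right of 0 at E7 feather (32 of 34), mostly left at E9 feather (33 of 34) and on either side in scale skin, where CCND2 is the red point at both ages.

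When both doubted arrays were left out, 19 of the 34 fell in E9fm and CCND2 rose, where 12.7% of all genes fell. The mean difference over the 34 genes was -0.65 instead of -0.39, and in 31 of them both E9fm arrays lay below both E9fe arrays, as in 32.7% of all genes. The E9fe replicate 1 array was below both other E9fe arrays in 31 of the 34 genes and in 41.3% of all genes, while the E9fm replicate 1 array was above both other E9fm arrays in 22 of the 34 and in 33.8% of all genes. Leaving out E9fe replicate 1 alone gave 13 calls, and leaving out E9fe replicate 2, E9fe replicate 3 or E9fm replicate 3 gave 2 calls each. A fit to the 6 arrays of these groups alone gave 0 calls. The share of all genes passing in each of these fits is not given here, so these counts cannot be set against it. Within class A the mean difference was -0.48, with 32 genes lower, and within class B it was -0.82, with 33 lower. Within class C, which here is the doubted pair, it was 0.14, with 24 genes higher and 10 lower. With the class as a block, chosen after seeing the data, 10 of the 34 fell, where 17.4% of all genes fell, and 23 fell when the doubted arrays were also left out, where 17.5% of all genes fell.

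By role, the mean E9 difference was lowest for the genes of replication, although no test compared the roles with each other. The 6 genes of the fork and nucleotide supply had a mean difference of -0.59 and 3 fell, and without the doubted arrays -0.83 and 5 fell. Among them TYMS was then at -1.12 (adjusted p 6.23e-05), RRM1 at -0.98 (0.00195), and RRM2, the small subunit of ribonucleotide reductase, at -0.85 (0.0033). PRIM1, which makes the primers of the fork, was the exception at -0.43 (0.259).

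The 5 helicase genes had a mean difference of -0.56 and 1 fell, and without the doubted arrays -0.89 and all 5 fell. MCM3 was then at -1.07 (adjusted p 0.0147), MCM5 at -0.92 (0.00327), MCM2 at -0.89 (0.00144), MCM6 at -0.66 (0.0123), and CDC45, which activates the MCM ring, at -0.93 (0.0386). CDC45 was at 10.04, 10.57 and 10.06 in E9fe and at 10.01, 9.76 and 9.00 in E9fm, so its doubted arrays were almost level.

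The 5 checkpoint and exit genes had a mean difference of -0.30 with 0 calls, and -0.56 with 3 calls without the doubted arrays. Another probe set of CHEK1 was at -0.66 and passed with all arrays (adjusted p 0.016). CDC20, which activates the anaphase ligase, was at 10.72, 11.84 and 11.92 in E9fe and at 11.25, 10.85 and 11.04 in E9fm. Its difference moved from -0.45 (adjusted p 0.263) to -0.94 (adjusted p 0.00108) without the doubted arrays. MAD2L1, which holds CDC20 back until all chromosomes are attached, was at -0.04 and -0.24 and passed in neither fit.

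Spindle kinases and motors were at a mean of -0.30 with 0 calls, and at -0.60 with 1 call, KIF23, without the doubted arrays. Kinetochore genes were at -0.38 with 0 calls, and at -0.67 with 1 call, NUF2, the partner of NDC80. NUF2 was listed at 8.27 in E9fe replicate 1 and 8.60 in E9fm replicate 1, and between 9.65 and 10.99 in all other arrays. A second NUF2 probe set was at 8.84 in E9fe replicate 1, its lowest array, against 9.88 and 10.02 in the other E9fe arrays. In E9fm replicate 1 it was at 9.26, between the 9.27 and 8.96 of the other E9fm arrays.

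Chromosome structure genes were at a mean of -0.32, NCAPG being the gene that passed, and at -0.56 with 2 calls without the doubted arrays, when TOP2A also fell (by 0.67, adjusted p 0.0401). The condensin ATPases SMC2 and SMC4 were at -0.10 and -0.11 and passed in neither fit, while NCAPG of the same complex did. CDK1 was at 12.20, 12.88 and 12.72 in E9fe and at 12.39, 12.43 and 12.09 in E9fm, with a difference of -0.30 (adjusted p 0.248) that became -0.54 (adjusted p 0.0211) without the doubted arrays. CCNA2 was at -0.46 and -0.74 and passed in neither fit. Over the 13 genes of G1 to S and S phase the mean difference was -0.57, and over the 19 genes of G2 and mitosis -0.33. In the fit without the doubted arrays, 10 of the 13 and 9 of the 19 fell, where 12.7% of all genes fell. The phases were not compared by a test.

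**Figure D4:**
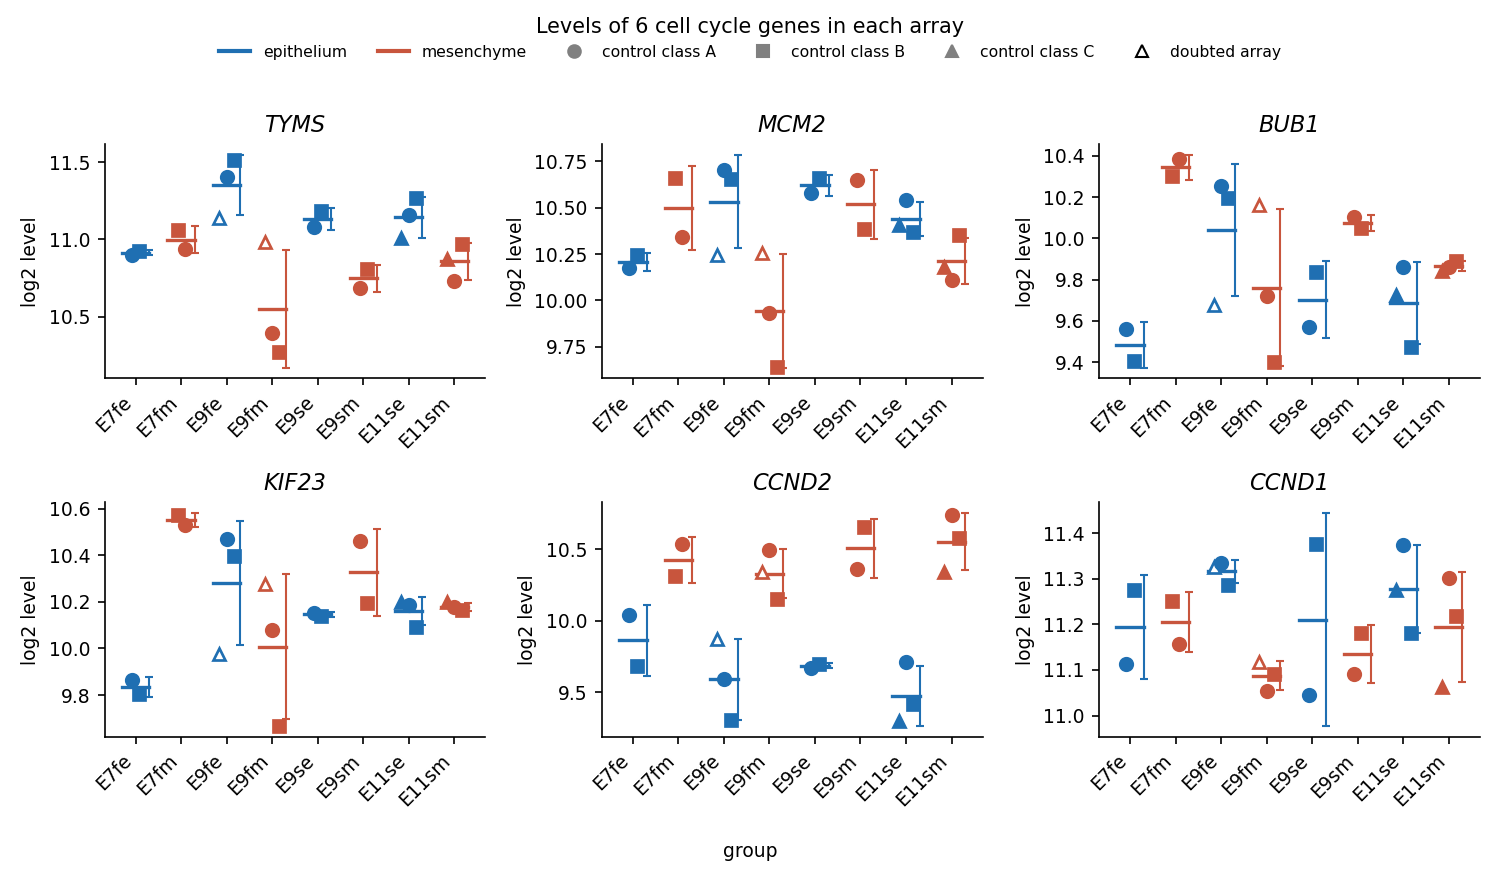
Log2 level of TYMS, MCM2, BUB1, KIF23, CCND2 and CCND1 in every array, by group, with colours and symbols as in the plot of member means. Each panel has its own vertical scale. TYMS and MCM2 are farthest apart between the compartments at E9 feather, BUB1 and KIF23 at E7 feather, CCND2 is higher in mesenchyme in all 4 skins and CCND1 stays between 11.05 and 11.38.

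The stage comparison in feather skin asked what changed from E7 to E9 within each compartment. In the epithelium 29 of the 34 genes had a positive difference, with a median of 0.37 against 0.01 over all genes, but 0 passed, where 1.08% of all genes did. At an unadjusted p under 0.05, 9 were higher and 0 lower, against 3.76% of all genes higher. TOP2A had the largest increase, from 10.67 and 10.58 in E7fe to 11.14, 11.25 and 11.36 in E9fe, a difference of 0.62 (SE 0.20, adjusted p 0.311) with no overlap. CDC20 followed at 0.60 and TPX2, which activates the spindle kinase AURKA, at 0.58. CENPF at -1.03, CCND2 at -0.27 and NUF2 at -0.08 were among the 5 genes below 0. NUF2 changed sign when the doubted arrays were left out, to 0.78 (adjusted p 0.139).

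Without the doubted arrays, 3 genes rose in the epithelium, where 1.68% of all genes rose. CDC20 rose by 0.99 (SE 0.17, adjusted p 0.00519), RRM1 by 0.81 (SE 0.19, adjusted p 0.0408) and BUB1 by 0.74 (SE 0.17, adjusted p 0.0319). RRM1 was at 9.92 and 10.15 in E7fe and at 9.81, 10.83 and 10.87 in E9fe, so the doubted array lay below both E7fe arrays while the others lay above them. The same was true of CDC20, which was at 10.80 and 10.99 in E7fe. The mean difference was 0.29 with all arrays and 0.48 without the doubted arrays, and 0.43 within class A and 0.53 within class B.

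In the mesenchyme all 34 genes had a negative difference from E7 to E9, with a median of -0.44 against 0.00 over all genes, and 0 passed, where 0.815% of all genes did. At an unadjusted p under 0.05, 13 were lower and 0 higher, against 6.83% of all genes lower. The largest were CENPF at -1.27, NUF2 at -1.06 and CCNE2 at -0.84, and the smallest CHEK1 at -0.10. NUF2 was at 10.52 and 10.63 in E7fm and at 8.60, 10.29 and 9.65 in E9fm, the lowest being the doubted array. With the doubted arrays left out, 33 were below 0 and 6 fell, where 1.48% of all genes fell: BUB1 by 0.78 (adjusted p 0.0228), NCAPG by 0.75 (0.0402), MCM6 by 0.73 (0.0332), MCM2 by 0.71 (0.0391), KIF23 by 0.68 (0.0359) and TYMS by 0.66 (0.0290). BUB1 went from 10.30 and 10.39 in E7fm to 10.16, 9.72 and 9.40 in E9fm, and KIF23 from 10.57 and 10.53 to 10.28, 10.08 and 9.67, and for both the E9 arrays lay below the E7 arrays. The mean difference was -0.47 with all arrays, -0.54 without the doubted ones, -0.37 within class A and -0.71 within class B.

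The difference between those changes was tested as an interaction, a comparison added after the values had been seen. Of the 34 genes, 29 had a positive change in epithelium together with a negative one in mesenchyme, and 5 were negative in both. The mesenchyme change minus the epithelium change was below 0 for 33 genes, with a median of -0.85 against -0.01 over all genes. None passed with all arrays, where 0.653% of all genes did, and 23 of the 34 were lower at an unadjusted p under 0.05, against 5.49% of all genes. KIF23 was at -0.99 (SE 0.25, adjusted p 0.138) and BUB1 at -1.14 (SE 0.30, adjusted p 0.155).

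Without the doubted arrays, 13 of the 34 passed, all of them lower, where 1.92% of all genes passed by being lower. BUB1 was at -1.52 (SE 0.24, adjusted p 0.00294), TYMS at -1.21 (SE 0.21, adjusted p 0.0059), KIF23 at -1.27 (SE 0.22, adjusted p 0.00604) and CDC20 at -1.38 (SE 0.24, adjusted p 0.00646). The other 9 were NUF2, MCM5, RRM1, NCAPG, MCM2, MCM6, SMC4, RRM2 and CDK1, from -1.39 to -0.87. CCND2 was the one gene above 0, at 0.18 with all arrays and 0.31 without the doubted ones (adjusted p 0.892). Within class A the mean was -0.79 and within class B -1.24, with 32 of 34 genes below 0 in each. With the class as a block 0 passed, and 23 when the doubted arrays were also left out, where 4.05% of all genes passed by being lower. The interaction equals the E9 feather compartment difference minus the E7 one. The 4 E7 arrays and the E9 feather arrays enter the stage, interaction and feather compartment comparisons alike. The results are therefore not independent of each other.

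**Figure D5:**
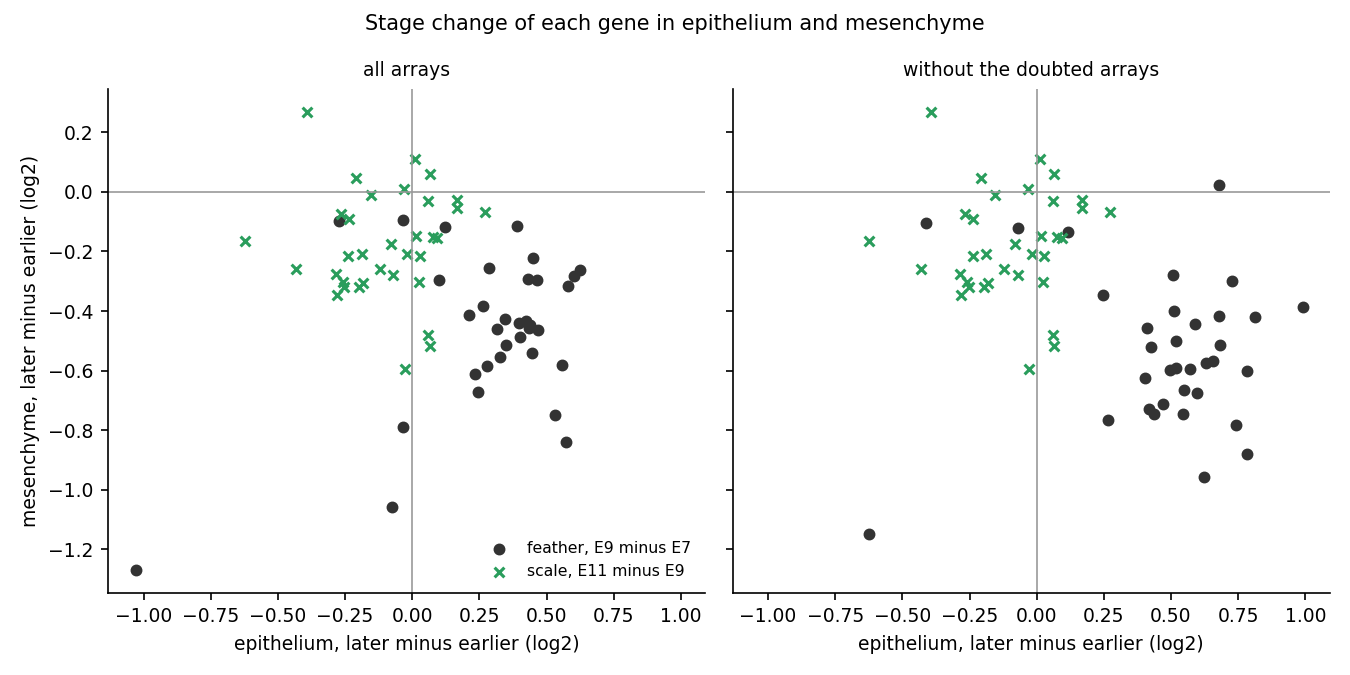
Change in log2 level from the undifferentiated to the differentiated stage in epithelium (horizontal) and mesenchyme (vertical) for each of the 34 genes, with all arrays (left) and without the 2 doubted arrays (right). Black dots are feather skin (E7 to E9) and green crosses scale skin (E9 to E11). With all arrays, 29 black dots lie in the lower right part, up in epithelium and down in mesenchyme, and the green crosses lie closer to the origin.

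Scale skin was compared in the same way. In E9sm against E9se, CCND2 was the only one of the 34 to pass, where 20% of all genes did, with 20 differences above 0, 14 below and a mean of 0.04. In E11sm against E11se CCND2 was again the only one, where 26.7% of all genes passed, with 12 above 0, 22 below and a mean of -0.04. CCND2 was at 9.67 and 9.70 in E9se and at 10.36 and 10.65 in E9sm, and rose by 0.82 (SE 0.22, adjusted p 0.0157). It was at 9.30, 9.71 and 9.42 in E11se and at 10.34, 10.74 and 10.58 in E11sm, and rose by 1.08 (SE 0.18, adjusted p 0.000252) or 2.11-fold. With 10.04 and 9.69 in E7fe and 10.31 and 10.54 in E7fm, where 0.56 did not pass (adjusted p 0.121), every mesenchyme array of a skin lay above every epithelium array of that skin in all 4 skins. The E9 scale call was lost without E9se replicate 1, E9se replicate 2 or E9sm replicate 2, and none of the 30 alternatives ended the E11 call.

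No other gene passed in the compartment comparisons of scale skin. At E9 the largest differences after CCND2 were SMC4 at 0.52 and BUB1 at 0.37, and in the other direction CENPF at -0.60, RFC3 at -0.39 and TYMS at -0.38. At E11 they were CENPE, a kinetochore motor, at 0.43, and RFC3 at -0.52 (adjusted p 0.0716), CCNA2 at -0.39 and PCNA at -0.38. PCNA was at 12.46, 12.59 and 12.60 in E11se and at 12.11, 12.19 and 12.20 in E11sm, with no overlap (adjusted p 0.125). The fork and nucleotide genes had a mean of 10.43 in E9se and 10.29 in E9sm, and of 10.42 in E11se and 10.12 in E11sm. Their mean was thus lower in scale mesenchyme too, without a call. At E9, RRM1 (10.16 in E9se, 10.34 in E9sm) and PRIM1 (8.95 and 8.97) went the other way, and the other fork and nucleotide genes were lower. The helicase genes were at 10.23 in E9se and 10.31 in E9sm, and at 10.04 in E11se and 9.96 in E11sm.

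From E9 to E11 no gene passed in scale epithelium, where 1.03% of all genes did, or in scale mesenchyme, where 0% did. At an unadjusted p under 0.05 the count was 0 of 34 in epithelium, against 13.1% of all genes, and 0 of 34 in mesenchyme, against 2.99%. The mean difference was -0.10 in epithelium, with 13 genes above 0, and -0.18 in mesenchyme, with 5 above 0. The largest in epithelium were CENPF at -0.62 and CCNE2 at -0.43, against TOP2A at 0.27. In mesenchyme they were MCM3 at -0.60, CCNB3, a cyclin of mitosis and meiosis, at -0.52 and RRM1 at -0.48, against CENPE at 0.27. In scale skin 11 genes went up in epithelium and down in mesenchyme, 18 went down in both, 2 went up in both and 3 went the opposite way. The scale version of the interaction had a mean of -0.08 with 0 calls, where 0.00769% of all genes passed, and 0 of 34 at an unadjusted p under 0.05, against 6.07%.

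Whether the stage changes of feather and scale skin differed was tested directly. In epithelium the scale change minus the feather change had a mean of -0.39, with 31 genes below 0. None passed, where 0.200% of all genes did, nor at an unadjusted p under 0.05, where 6.12% of all genes did. With the doubted arrays left out, the mean was -0.58, 17 of 34 were lower at an unadjusted p under 0.05, against 7.73% of all genes, and CDC20 passed at -1.11 (SE 0.23, adjusted p 0.0465), where 1.08% of all genes passed. In mesenchyme the mean was 0.29, with 29 genes above 0. None passed, where 0.0615% of all genes did, and 1 of 34 was higher at an unadjusted p under 0.05, against 3.90% of all genes in either direction. The mean without the doubted arrays was 0.36, again with 0 calls.

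Feather and scale skins were also compared at matched stages and at matched age, and none of these 6 comparisons gave a call among the 34 genes with all arrays. In undifferentiated epithelium, E9se minus E7fe, the mean was 0.14 with 30 genes above 0, where 1.25% of all genes passed. The count at an unadjusted p under 0.05 was 0 of 34, against 8.67%. The largest were KIF11, the motor that separates the spindle poles, at 0.43 and MCM2 at 0.41. In undifferentiated mesenchyme, E9sm minus E7fm, the mean was -0.19, where 1.31% of all genes passed. The unadjusted count was 1 of 34, lower, against 9.15%, and CENPF at -0.85 and NCAPG at -0.57 lay lowest.

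In differentiated epithelium, E11se minus E9fe, the mean was -0.25 with 32 genes below 0, where 0.530% of all genes passed. The unadjusted count was 4 of 34, all lower, against 8.13%. CDC20 at -0.90 (adjusted p 0.00447) and MCM5 at -0.73 (adjusted p 0.0403) passed without the doubted arrays, where 4.17% of all genes did. The mean was then -0.44, and 16 of 34 were lower at an unadjusted p under 0.05, against 11.4% of all genes. In differentiated mesenchyme, E11sm minus E9fm, the mean was 0.10, where 0.0154% of all genes passed, and 0 of 34 passed unadjusted, against 6.58%. With the doubted arrays left out, the mean was 0.17 with 29 genes above 0 and 0 calls, and 3 of 34 were higher at an unadjusted p under 0.05, against 6.08% of all genes.

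At the same age, E9se minus E9fe had a mean of -0.15, where 0.0999% of all genes passed, and 1 of 34 was lower at an unadjusted p under 0.05, against 9.96%. This was TOP2A, at -0.48. Without the doubted arrays the mean was -0.34 and CDC20 passed at -0.78 (adjusted p 0.0197), where 5.03% of all genes did. E9sm minus E9fm had a mean of 0.28 with 32 genes above 0, where 0% of all genes passed, and 2 of 34 were higher at an unadjusted p under 0.05, against 7.79%. The mean without the doubted arrays was 0.35 and MCM2 passed at 0.73 (adjusted p 0.0285), where 4.40% of all genes did. These comparisons share the E9 feather arrays with the compartment and stage comparisons above.

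CCNE2, CENPF and KIF11 differed most between the control classes. In class A against class B, averaged over the 8 groups, CCNE2 was 0.97 higher, CENPF 0.75 higher and KIF11 0.61 higher, each in 8 of 8 groups. Over the 34 genes the median was 0.08 and over all genes -0.02. In every group 6 of the 34 were higher in class A, and the share of all genes that were is not given here. CCNE2 was at 8.56, 9.15, 8.81 and 8.76 in the class A arrays of E7fe, E9fe, E9se and E11se and at 7.33, 8.31, 7.88 and 7.34 in the class B arrays, so class A was above class B in each. The reported probe sets of these 3 genes passed in no compartment or stage comparison with all arrays and no block. Another CENPF probe set passed in E9fm minus E9fe, at -1.14 (adjusted p 0.044).

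A wider list held 142 measured genes of dividing cells that are not among the 34. At E7 feather 7 rose in mesenchyme and 3 fell, a smaller share than the 17.8% of all genes that passed, with a median of 0.31 and 117 above 0. The kinetochore genes CENPP, at 1.85 (adjusted p 0.000549), and CENPO, at 0.89 (adjusted p 0.0105), the cytokinesis kinase CIT, at 0.96 (adjusted p 0.0081), and the furrow scaffold ANLN, at 0.92 (adjusted p 0.0232), rose. GMNN, geminin, which blocks relicensing of origins, fell by 1.40 (adjusted p 0.000992), E2F5, an E2F repressor, by 1.75 (adjusted p 0.00658) and MNAT1, of the CDK-activating kinase, by 1.08 (adjusted p 8.87e-05).

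At E9 feather 1 rose, the cohesin subunit STAG1, and 22 fell, where 12.1% of all genes rose and 12.1% fell, with a median of -0.39 and 126 below 0. ECT2, which starts the cleavage furrow, fell by 1.18 (adjusted p 0.00789), GMNN by 1.20 (adjusted p 0.000523), MCM10, of the replication start, by 1.17 (adjusted p 0.0259) and AURKB, the chromosomal passenger kinase, by 0.73 (adjusted p 0.0150). The count without the doubted arrays was 55 lower, where 12.7% of all genes fell, and 0 higher, with a median of -0.60. GMNN was at 11.19 and 11.39 in E7fe, 10.15 and 9.63 in E7fm, 10.12, 10.89 and 10.80 in E9fe and 9.48, 9.56 and 9.16 in E9fm, so it was lower in mesenchyme at both ages.

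In scale skin 1 gene rose and 10 fell at E9, and 4 rose and 10 fell at E11, with medians of -0.11 and -0.13. Both are smaller shares than the 20% and 26.7% of all genes that passed. CENPP rose in mesenchyme at both ages, by 1.33 (adjusted p 0.00779) and 1.15 (adjusted p 0.00358), and E2F5 and CDK6, a G1 kinase, fell at both. From E7 to E9 in feather skin 0 of the 142 passed in either compartment, with medians of 0.27 in epithelium and -0.44 in mesenchyme, and without the doubted arrays 10 rose and 1 fell in epithelium, where 1.68% of all genes rose, and 10 fell in mesenchyme, where 1.48% of all genes fell. The interaction had a median of -0.73 with 133 below 0 and 0 calls, and 29 lower and 1 higher without the doubted arrays, where 1.92% of all genes were lower.

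Of the 6 measured genes with a CDKN symbol, CDKN2A fell in mesenchyme in every skin. Its difference was -3.48 at E7 feather (SE 0.63, adjusted p 0.001), -4.08 at E9 feather (SE 0.51, adjusted p 2.59e-05), -2.37 at E9 scale (SE 0.63, adjusted p 0.0172) and -3.36 at E11 scale (SE 0.51, adjusted p 0.000139). The E9 feather difference was -5.22 without the doubted arrays (adjusted p 2.79e-08). It was at 10.37 and 10.51 in E7fe, at 7.32, 9.87 and 9.80 in E9fe, at 7.77 and 8.27 in E9se, and at 9.59, 9.92 and 9.06 in E11se. In mesenchyme it was at 6.77 and 7.15 in E7fm, at 5.53, 4.49 and 4.74 in E9fm, at 5.35 and 5.94 in E9sm and at 6.44, 6.46 and 5.59 in E11sm. The compartments overlapped in no skin, and the doubted E9fe array was the lowest epithelium array.

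CDKN1B rose in mesenchyme at E11 scale by 0.71 (SE 0.16, adjusted p 0.00313) and was between -0.29 and 0.22 in the other skins. CDKN1A was between -0.58 and 0.13, CDKN2B between -0.25 and 0.08 and CDKN2C between 0.09 and 0.14, and none passed in a compartment comparison. With the doubted arrays left out, the E9 feather differences of CDKN1A, CDKN1B, CDKN2B and CDKN2C were -0.21, 0.30, -0.57 and 0.11, and none passed. CDKN3, a phosphatase that acts on CDKs and is itself made in dividing cells, was at 0.61 at E7 feather and at -0.63 at E9 feather without passing. Its E9 feather difference was -0.97 (adjusted p 0.00542) without the doubted arrays, and its feather interaction -1.57 (adjusted p 0.0125). GADD45A, a growth arrest and damage gene, fell in mesenchyme in all 4 skins, by 1.63, 1.42, 1.18 and 1.48 in the order above, and at E9 feather the call held without the doubted arrays (adjusted p 1.4e-05).

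Other cell types moved with the compartments and stages, and their part in the results was not tested. The mean level of 7 measured erythroid genes (of 13 listed) was 10.93 and 10.24 in E7fm, 7.82 in E9fm replicate 1 and 9.78 and 10.07 in the other E9fm arrays, and 5.55 to 7.42 in epithelium. That of 9 endothelial genes was 6.56 to 8.13 in mesenchyme and 4.90 to 5.41 in epithelium, and that of 6 myeloid genes 6.71 to 7.22 and 5.42 to 5.79. That of 10 neural crest and melanocyte genes was 9.57 and 9.70 in E7fe, 6.77 in E9fe replicate 1 and 9.69 and 9.22 in the other E9fe arrays, 6.92 to 7.71 in scale epithelium and 5.77 to 7.05 in mesenchyme. Within this list the neural crest gene FOXD3 went the other way in every skin, with group means of 6.35 in E7fe and 7.59 in E7fm. SOX10 did so in scale skin, at 6.37 in E9se and 7.80 in E9sm, and at 6.12 in E11se and 8.38 in E11sm. With all arrays it did so in E9 feather skin too, at 7.77 in E9fe and 8.03 in E9fm. The doubted arrays there were at 6.64 and 8.51. At E7 it was at 9.14 in E7fe and 7.99 in E7fm. The mean level of 10 skeletal muscle genes was 6.73 and 6.46 in E9fm replicates 2 and 3 and 4.75 to 5.25 in all other mesenchyme arrays, so the undoubted E9fm arrays stood above all others in muscle genes. That of 6 measured nerve genes (of 7 listed) was 7.71 and 7.78 in E7fe, 6.07 and 6.19 in E7fm, 6.46 to 6.76 in E9fe, 5.51 in E9fm replicate 1 and 6.52 and 6.77 in the other E9fm arrays, 5.96 to 6.99 in scale epithelium and 5.49 to 5.63 in scale mesenchyme. At E7, ELAVL4 alone of these 6 went the other way, with group means of 7.06 in E7fe and 7.80 in E7fm.

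Other probe sets of the same genes were checked for sign. The 20 genes with several had 30 further probe sets, of which 25 had the sign of the reported one at E7 feather and 25 at E9 feather. All 3 probe sets of CCND2 were higher in mesenchyme in both feather comparisons. At E9 feather with all arrays, other probe sets of RRM1, CHEK1 and CENPF passed where the reported ones did not. The reverse also occurred. At E7 feather, other probe sets of BUB1, KIF23 and NDC80 were at 0.87 (adjusted p 0.111), 0.69 (0.125) and 0.90 (0.261) and did not pass. At E9 feather, another NCAPG probe set was at -0.77 (adjusted p 0.102). Of the other CCND2 probe sets, 1 was at 0.59 without passing (adjusted p 0.063) and 1 passed at 0.65 (adjusted p 0.030).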

How the data were processed

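Total RNA of pooled epithelium and mesenchyme was measured on 20 Affymetrix chicken arrays in 8 groups. The authors deposited log2 values made with RMA in the affy package (background correction, quantile normalization and probe set summary over all arrays), with versions not given in the sources used here. Quantile normalization gives all arrays nearly the same distribution (array medians 5.62 to 5.69), so values are relative to all genes of an array. The number of arrays limits the precision.

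From these values 96 array controls were left out and 38439 probe sets were tested with limma 3.58.1 in R 4.3.3, with 1 mean per group, all 8 groups, eBayes and Benjamini-Hochberg adjustment within each comparison. Shares of all genes are over 13009 genes, the probe set of highest mean each. The fit was also run on simulated data with known shifts, which held no control classes and no doubted arrays. That run does not measure how reliable the calls above are. Tables and figures were made with Python 3.11.15, pandas 2.3.3, numpy 2.4.6 and matplotlib 3.10.9. The annotation paired 27168 probe sets with 1 symbol, 177 with several and 11094 with none.

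Members, gene lists and tests were chosen with earlier results of these data known. Named genes are those that passed with all arrays, or some of the larger differences where fewer than 3 passed. The largest differences were not named in every comparison. CDK1, CCNA2, TOP2A, PCNA, MCM2, CCND1 and CCND2 were named as well. So were up to 3 passing genes each way of the wider list, and the genes with a CDKN symbol. Others in the text were chosen after their values were seen. An array is in class A where control bioC exceeds bioB by under 1, otherwise in B where bioB is at least 8 and in C where not. Alternatives left out each array, the doubted arrays or dim probe sets, centred arrays, weighted them, averaged probe sets, fitted only the groups compared, used eBayes with trend, or blocked by replicate number or class. The study's Methods and the labels differ on arrays per group, and the labels were followed.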

Additional observations from a re-analysis of the deposited data

Results flagged for a closer look

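For 5 genes, every array of the groups compared lay on opposite sides in the 2 comparisons set against each other. Over all genes, 27.3% had E7fm above E7fe without overlap, and 17.5% had E9fm below E9fe without overlap. The share of all genes with both is not given here. In E7 feather skin both mesenchyme arrays lay above both epithelium arrays, and in E9 feather skin all mesenchyme arrays lay below all epithelium arrays, for CDC45, TYMS, TOP2A and NCAPG. The E9 difference minus the E7 difference was -1.28 for CDC45, -0.89 for TYMS, -0.89 for TOP2A and -0.91 for NCAPG. The interaction in limma gave adjusted p-values of 0.294, 0.254, 0.337 and 0.254, and without the doubted arrays 0.0603, 0.0059, 0.074 and 0.0199. The genes were chosen for these opposite sides, so the p-values are not separate support. For MCM2, every E9fe array lay at or above every E7fe array and every E11se array below every E9se array, and the scale stage change minus the feather stage change was -0.51, with an adjusted p of 1 in the interaction.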

How the results depend on the processing

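No named call reversed. Over 12 named calls and 30 alternatives each, 300 values kept the call and 60 lost it, most often PCNA at E9 feather (19 of 30) and NDC80 at E7 feather (12 of 30), and CCND2 at E11 scale lost it in none. Of the 30 alternatives, 20 left out 1 array each. Most of those arrays were in neither group compared, so the difference itself could not change and the share kept overstates stability. BUB1 and KIF23 at E7 feather kept the call in 26 of 30, but lost it whenever an E7 feather array was left out. The number of all 13009 genes called moved with the fit too, so a higher count alone is no result about the 34. With all arrays it was 3155 for E9fm minus E9fe and 2322 for E7fm minus E7fe. With class block and without the doubted arrays it was 4248 and 3390. Likewise it went from 140 to 746 for E9fe minus E7fe and from 106 to 843 for E9fm minus E7fm. The feather interaction went from 85 to 972. Totals for array weights and for leaving out 1 array are not given here. Counts among the 34 genes moved as follows. For E9fm minus E9fe (6 with all arrays), the count was 17 with array weights, 11 with the class block, 20 without both doubted arrays, 24 with class block and without them, 0 with only the groups compared and 2 to 13 leaving out 1 array. For E7fm minus E7fe (4), it was 7 with array weights, 10 with class block and without the doubted arrays, and 0 to 4 leaving out 1 array. For E9fe minus E7fe (0), it was 3 without both doubted arrays, 8 with the class block as well and 0 to 3 leaving out 1 array. For E9fm minus E7fm (0), it was 3 with array weights, 6 without both doubted arrays, 9 with the class block as well and 0 to 1 leaving out 1 array. For the feather interaction (0), it was 9 with array weights, 13 without both doubted arrays, 23 with the class block as well and 0 to 7 leaving out 1 array (7 without E9fe replicate 1, 3 without E9fm replicate 1), and its mean shift was -1.02 in both fits without the doubted arrays.

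Over all genes, E11sm minus E11se gave 3472 calls with all arrays and 4777 with class block and without the doubted arrays. E9sm minus E9se gave 2600 and 3856. For E11sm minus E11se (1), the count among the 34 was 2 with the class block, with the mean of all probe sets, with the replicate block and without the doubted arrays (PCNA added), 3 with class block and without them, and 1 to 2 leaving out 1 array. For E9sm minus E9se (1), it was 2 with array weights, 2 with class block and without the doubted arrays, and 0 to 1 leaving out 1 array. Without the doubted arrays it was 2 for E11se minus E9fe (5 with the class block, 0 to 1 leaving out 1 array), 1 for E9se minus E9fe (1 with the class block, 0 to 1 leaving out 1 array), 1 for E9sm minus E9fm (2 with the class block), 0 for E11sm minus E9fm (1 with the class block) and 1 for the epithelium interaction (1 with the class block). The other 1009 counts and mean shifts stayed within 1.5 times the count or 1 SD of the shift. The causes were not tested.

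The replicate numbers were not taken as pairs, since same-numbered arrays deviated together in 3 of the 4 skins but not in E7 feather skin. Deviations of same-numbered epithelium and mesenchyme arrays correlated at -0.37 in E7 feather skin and at 0.20 to 0.71 elsewhere, while same-class arrays correlated at 0.20 to 0.71 in every skin. The replicate block was a term per replicate number shared by all groups, so it did not pair the arrays of a skin. With it E9fm minus E9fe gave 8 calls among the 34 genes, E7fm minus E7fe 4 and E11sm minus E11se 2. Over all 13009 genes the same fit gave 3477, 2526 and 3798 calls, in that order. In each comparison the share called was smaller among the 34 than among all genes. The class block, chosen after seeing the data, crosses the E7 numbers.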
